A study of Mus musculus with 6 samples.

Results

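The MS4A genes *Ms4a4a*, *Ms4a4b*, *Ms4a4c*, *Ms4a6b*, *Ms4a6c*, *Ms4a6d*, *Ms4a7* and *Ms4a8a* were examined by name in chronic stroke infarcts. These 8 members were chosen by symbol from the 46078 genes of the count tables, as MS4A genes described in myeloid cells, although *Ms4a4b* is known mainly from T cells. The mice were male, of the background strain C57BL/6J and wild type, with an age of 3 months and a time point of 7 weeks in the sample records. All had received a stroke by occlusion of the distal middle cerebral artery followed by hypoxia, so the contralateral cortex is tissue of a brain that also carried a stroke. RNA was sequenced from 3 infarcts, dissected by eye, and from 3 pieces of contralateral cortex at the matching location. The sample records name no drug for any of the 6 libraries, and they do not state which infarct and which cortex came from 1 mouse or that the libraries of a region came from separate mice. Adjusted *p* values therefore measure the spread between these samples, which may be partly technical.

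MS4A proteins cross the membrane with a tetraspan fold and act mostly as adaptors and ion-handling partners of immune receptors. The best-known relatives are *Ms4a1*, which encodes the B-cell antigen CD20, and *Ms4a2*, which encodes the beta chain of the high-affinity IgE receptor of mast cells. In the brain, *Ms4a7* is known as a gene of border-associated and monocyte-derived macrophages that resting microglia express little, and variants in the human MS4A cluster are associated with soluble TREM2 and with Alzheimer's disease.

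Counts on genes totaled 12146959 to 13427057 in infarcts and 11943570 to 19933962 in contralateral cortices. Of all genes, 15554 passed a filter on low counts, and the median gene differed by 0.03 on the log2 scale between the regions. Summed CPM (counts scaled to library size) of 8 neuronal marker genes were 690, 875 and 2003 in infarcts 1, 2 and 3, against 9966 to 11040 in contralateral cortices, so infarct 3 held the most neuronal RNA of the infarcts. Library sizes behind the CPM were scaled with TMM, a method that corrects for a few genes taking many reads.

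All 8 members lie on chromosome 19 of the mouse genome (GRCm38) and are annotated as protein coding. In order along the chromosome, *Ms4a8a* spans 11067471 to 11081102, *Ms4a7* spans 11321039 to 11336146, *Ms4a4a* spans 11375523 to 11392790 and *Ms4a4c* spans 11404770 to 11427246. *Ms4a4b* follows at 11443553 to 11467055, *Ms4a6c* at 11469366 to 11482192, *Ms4a6b* at 11516512 to 11531256 and *Ms4a6d* at 11586604 to 11604849. *Ms4a8a*, *Ms4a7* and *Ms4a6d* are on the minus strand and the other 5 on the plus strand. Members are paralogs, so windows as long as a read (75 bases) were compared with all annotated transcripts. No window of *Ms4a7*, *Ms4a4a* or *Ms4a8a* occurred in another gene, and the share was 0.408% for *Ms4a6d*, 0.632% for *Ms4a6b*, 1.18% for *Ms4a4b* and 3.78% for *Ms4a4c*. *Ms4a6c* was the exception with 47.7%, all of them shared with *BE692007*, an annotated gene on the other strand that covers 53.1% of its exon bases. The libraries were stranded, but the strand setting of the counting is not given in the sources used here, so the counts of *Ms4a6c* and *BE692007* are uncertain.

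The promoter windows of 5 members are shown, chosen as those with a match to the motif described next, and they include the 2 pairs of close paralogs. The windows are those of RefSeq on GRCm38.p6, 300 bases running from 250 bases before an annotated start to 50 bases from it on, written 5′ to 3′ on the gene's strand. RefSeq gave a window for 7 of the 8 members, all but *Ms4a6d*, and 2 windows for *Ms4a7*. Capitals mark the letters GGAAGT or their reverse complement, the core recognized by many factors of the ETS family, to which the myeloid regulator PU.1 belongs. The windows lie at chr19:11443308-11443607 (plus strand) for *Ms4a4b*, chr19:11407411-11407710 (plus strand) for *Ms4a4c*, chr19:11518309-11518608 (plus strand) for *Ms4a6b*, chr19:11469118-11469417 (plus strand) for *Ms4a6c* and chr19:11336097-11336396 (minus strand) for the first start of *Ms4a7*.
Ms4a4b: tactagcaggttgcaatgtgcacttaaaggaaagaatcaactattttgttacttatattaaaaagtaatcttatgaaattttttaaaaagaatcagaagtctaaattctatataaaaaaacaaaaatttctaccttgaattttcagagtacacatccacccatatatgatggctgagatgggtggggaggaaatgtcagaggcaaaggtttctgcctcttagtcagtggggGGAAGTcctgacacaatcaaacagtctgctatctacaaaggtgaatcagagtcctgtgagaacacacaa
Ms4a4c: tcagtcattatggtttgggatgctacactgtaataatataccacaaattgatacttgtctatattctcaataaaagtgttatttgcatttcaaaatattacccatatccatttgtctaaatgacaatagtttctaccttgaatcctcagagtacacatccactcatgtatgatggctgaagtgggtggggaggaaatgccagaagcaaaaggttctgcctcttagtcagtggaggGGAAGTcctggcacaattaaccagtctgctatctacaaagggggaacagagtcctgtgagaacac
Ms4a6b: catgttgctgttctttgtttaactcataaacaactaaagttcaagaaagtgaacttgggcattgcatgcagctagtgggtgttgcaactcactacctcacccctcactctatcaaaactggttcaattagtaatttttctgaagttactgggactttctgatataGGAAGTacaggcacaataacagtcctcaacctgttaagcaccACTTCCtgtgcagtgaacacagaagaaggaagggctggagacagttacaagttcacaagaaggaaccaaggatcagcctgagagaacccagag
Ms4a6c: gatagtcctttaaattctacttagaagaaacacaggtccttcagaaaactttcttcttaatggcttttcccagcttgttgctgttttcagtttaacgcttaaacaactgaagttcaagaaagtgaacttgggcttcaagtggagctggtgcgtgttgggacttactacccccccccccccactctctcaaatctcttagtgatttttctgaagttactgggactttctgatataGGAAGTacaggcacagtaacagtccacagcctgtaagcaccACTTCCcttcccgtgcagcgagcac
Ms4a7: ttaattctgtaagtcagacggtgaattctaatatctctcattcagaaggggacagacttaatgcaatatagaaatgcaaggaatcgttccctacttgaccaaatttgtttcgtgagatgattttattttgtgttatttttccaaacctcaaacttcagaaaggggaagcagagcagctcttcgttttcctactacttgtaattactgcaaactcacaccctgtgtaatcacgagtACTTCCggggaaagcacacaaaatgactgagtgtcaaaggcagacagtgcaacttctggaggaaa

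The windows of *Ms4a4b* and *Ms4a4c* were 72.3% identical in a global alignment and shared a longest identical run of 20 bases. Those of *Ms4a6b* and *Ms4a6c* were 51.2% identical, with an identical run of 48 bases that sits at different distances from the 2 annotated starts. The other 19 pairs of members were 43.9% to 48.4% identical, with no identical run over 7 bases. GGAAGT, on either strand, occurred in 5 of the 8 member windows, in 7 of 16 windows of the other family genes listed further on, and in 23.8% of all 32851 RefSeq windows of this length. *Ms4a4a* and *Ms4a8a* had no such match. The first base of the match lay 19 bases before the start in *Ms4a4b*, 15 before it in *Ms4a4c* and *Ms4a7*, and 16 before it in *Ms4a6c*, while the matches of *Ms4a6b* lay 85 and 43 bases before its start and *Ms4a6c* had another 25 bases after its start. The AP-1 letters TGANTCA occurred in 3 of the 8 member windows (*Ms4a4b*, *Ms4a8a* and the second start of *Ms4a7*), in 2 of the 16 other family windows and in 7.81% of all windows. The C/EBP letters TTGCNNAA occurred in no member window, against 3 of the 16 other family windows and 10.8% of all windows, and neither did the IRF motif, searched as GAAA followed after 2 bases by GAAA, against 1 of the 16 and 3.44% of all windows. Both strands were searched for each, and 0 matches of different motifs overlapped. A match describes letters in a window and is not evidence of binding.

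**Figure D1:**
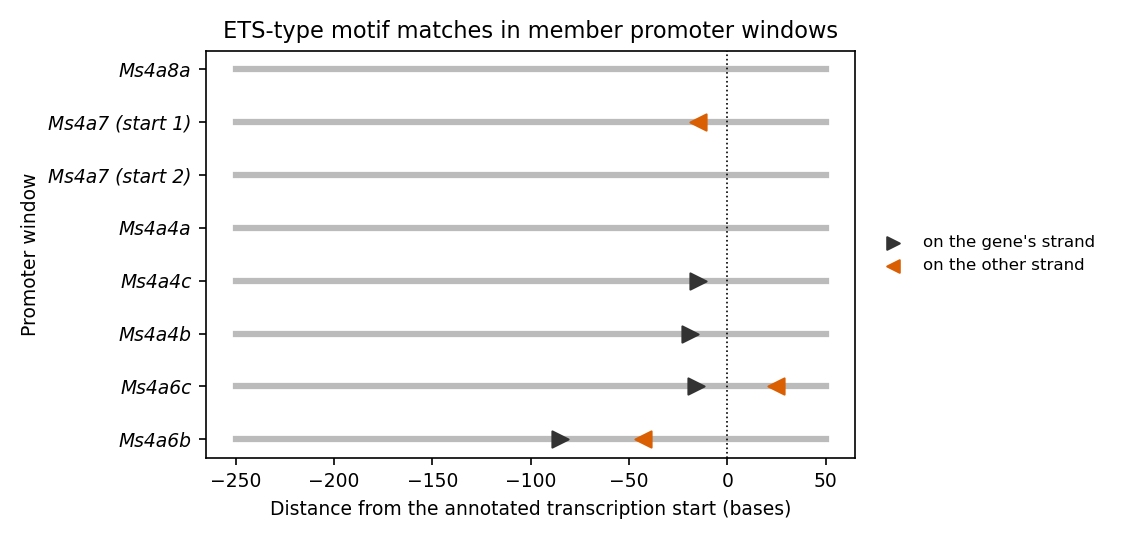
Position of GGAAGT-type matches (triangles, by strand) in the promoter windows of the 7 members with a RefSeq window, as distance in bases from the annotated start; grey bars are the windows. Matches of *Ms4a4b*, *Ms4a4c*, *Ms4a6c* and the first start of *Ms4a7* lie 15 to 19 bases before the start, and *Ms4a4a* and *Ms4a8a* have none.

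Expression of the MS4A members was far higher in infarcts than in contralateral cortices. All 7 members that passed the filter were called higher in infarcts, with log2 fold changes from 4.37 for *Ms4a6b* to 9.69 for *Ms4a4b*, leaving aside *Ms4a4c*, which had no count in any contralateral cortex and for which only a lower bound can be given. The rule for a call was a log2 fold change beyond 1 that also reached an adjusted *p* below 0.05. By this rule, 25.7% of all tested genes were called higher and 20.9% lower. In each of the 7, every infarct library was above every contralateral library, which held for 37.6% of all tested genes. The count itself is not support, since 5 of the 7 passed the filter only through their infarct counts. *Ms4a6b* and *Ms4a6d* had at least 10 counts in every library. The median log2 fold change of the 7 was 6.25, also with *Ms4a4c* at its lower bound, beside 0.03 over all tested genes. The filter limits this median in the same way. *Ms4a6b* and *Ms4a6d*, which it does not affect, had log2 fold changes of 4.37 and 5.71. In tissue RNA, more cells of a type and more RNA per cell cannot be told apart.

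*Ms4a7* had the smallest adjusted *p* of the members. Its counts were 2018, 1705 and 1596 in infarcts 1, 2 and 3. Contralateral cortices 1, 2 and 3 held 12, 6 and 7. In CPM it stood at 161, 125 and 109 in infarcts and at 0.627, 0.391 and 0.646 in contralateral cortices. The regions did not come near each other, and the highest infarct was 1.48 times the lowest. The log2 fold change was 7.88 ± 0.29 (SE; adjusted *p* = 1.50e-07), which placed *Ms4a7* at position 12 by *p* among the 3999 genes called higher.

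*Ms4a6d*, whose protein is known to associate with the macrophage receptor VSIG4, was the member with the most counts. It had 2150, 2321 and 1827 counts in infarcts and 70, 44 and 24 in contralateral cortices, or 171, 170 and 125 CPM against 3.66, 2.87 and 2.22 CPM. Infarcts 1 and 2 were nearly equal and infarct 3 lower, while contralateral cortex already held clear expression. The log2 fold change was 5.71 ± 0.21 (SE; adjusted *p* = 1.64e-07).

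*Ms4a4a*, a surface protein of alternatively activated macrophages that is known to work with the fungal receptor dectin-1, had 241, 338 and 258 counts in infarcts and 7, 10 and 10 in contralateral cortices. In CPM these were 19.2, 24.8 and 17.6 against 0.366, 0.651 and 0.923. Infarct 2 was the highest here, unlike in the other 6 called members, where infarct 1 had the highest CPM. The log2 fold change was 5.05 ± 0.34 (SE; adjusted *p* = 1.03e-06).

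**Figure D2:**
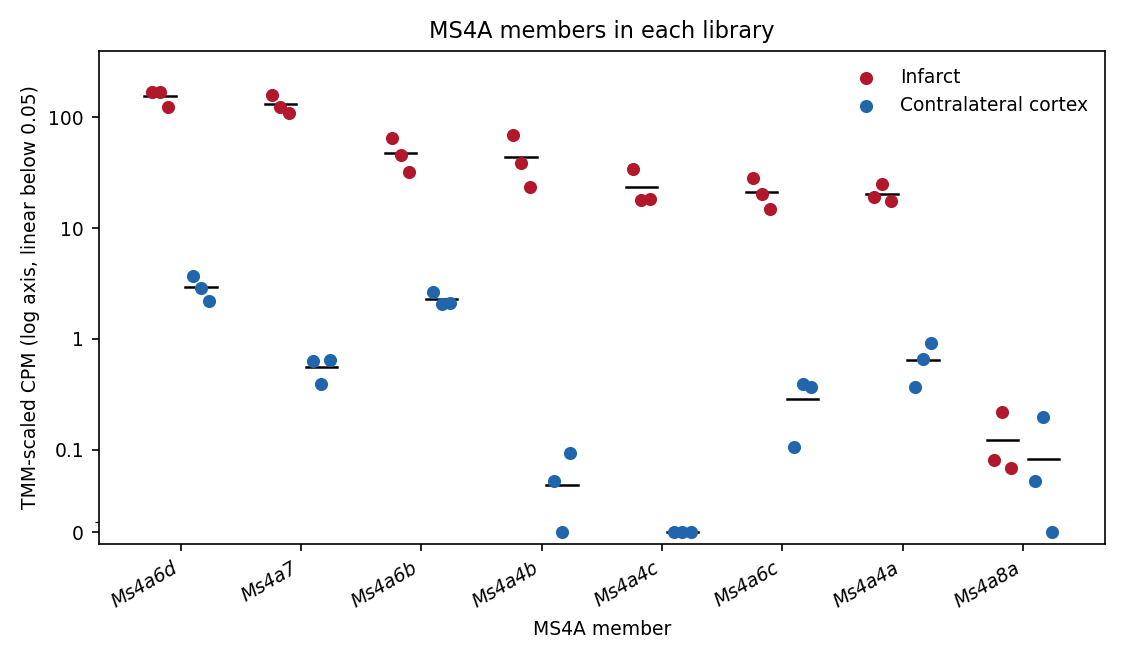
TMM-scaled CPM of the 8 members in the 3 infarct (red) and 3 contralateral cortex (blue) libraries, on a log axis that is linear below 0.05; horizontal lines are means. All infarct points lie above all contralateral points in 7 members, *Ms4a4c* is at 0 in every contralateral cortex, and *Ms4a8a* overlaps between the regions.

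*Ms4a4b* and *Ms4a4c*, whose promoter windows were the most alike, had the fewest contralateral counts of the called members. A link between promoter window and expression was not tested. *Ms4a4b*, which is known from T cells, where it modulates activation and binds the co-stimulatory receptor GITR, had 867, 527 and 342 counts in infarcts and 1, 0 and 1 in contralateral cortices. Its infarct CPM of 69.1, 38.7 and 23.3 had the widest spread of the 7, with the highest 2.96 times the lowest. The log2 fold change was 9.69 ± 1.53 (SE; adjusted *p* = 9.07e-06). Since only 2 counts stood against it, the ratio of pooled counts, scaled to library size, was 964 with a 95% exact interval of 266.5 to 7966 that covers counting error only.

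*Ms4a4c*, an interferon-responsive gene of monocytes and other leukocytes, had 425, 242 and 267 counts in infarcts and 0 in each contralateral cortex. Its infarct CPM were 33.9, 17.8 and 18.2, so infarct 1 stood above the other 2, as in *Ms4a4b*. Taken against a floor of 3 counts in each contralateral library, the infarct level of *Ms4a4c* was at least 111-fold higher (adjusted *p* = 1.00e-05). About 3.78% of its read-length windows also occur in *Ms4a4b*.

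*Ms4a6b* and *Ms4a6c*, which share the 48-base run upstream of their starts, differed in how much contralateral cortex expressed them. *Ms4a6b* had 819, 628 and 469 counts in infarcts and 51, 32 and 23 in contralateral cortices, or 65.2, 46.1 and 32 CPM against 2.66, 2.08 and 2.12 CPM. It had the smallest log2 fold change of the called members, 4.37 ± 0.28 (SE; adjusted *p* = 1.63e-06). *Ms4a6c* had 355, 276 and 218 counts in infarcts and 2, 6 and 4 in contralateral cortices, with 28.3, 20.3 and 14.9 CPM against 0.105, 0.391 and 0.369 CPM. Its log2 fold change was 6.25 ± 0.52 (SE; adjusted *p* = 1.65e-06). The overlapping *BE692007* gave almost the same counts, 335, 317 and 280 against 2, 6 and 1, so the 2 genes cannot be told apart here.

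*Ms4a8a*, described in alternatively activated macrophages and in epithelium, was the exception. It had 1, 3 and 1 counts in infarcts and 1, 3 and 0 in contralateral cortices, and did not pass the filter. The regions overlapped, and the ratio of pooled counts was 1.39 with a 95% exact interval of 0.299 to 6.996. A difference in *Ms4a8a* was not detectable at this depth.

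**Figure D3:**
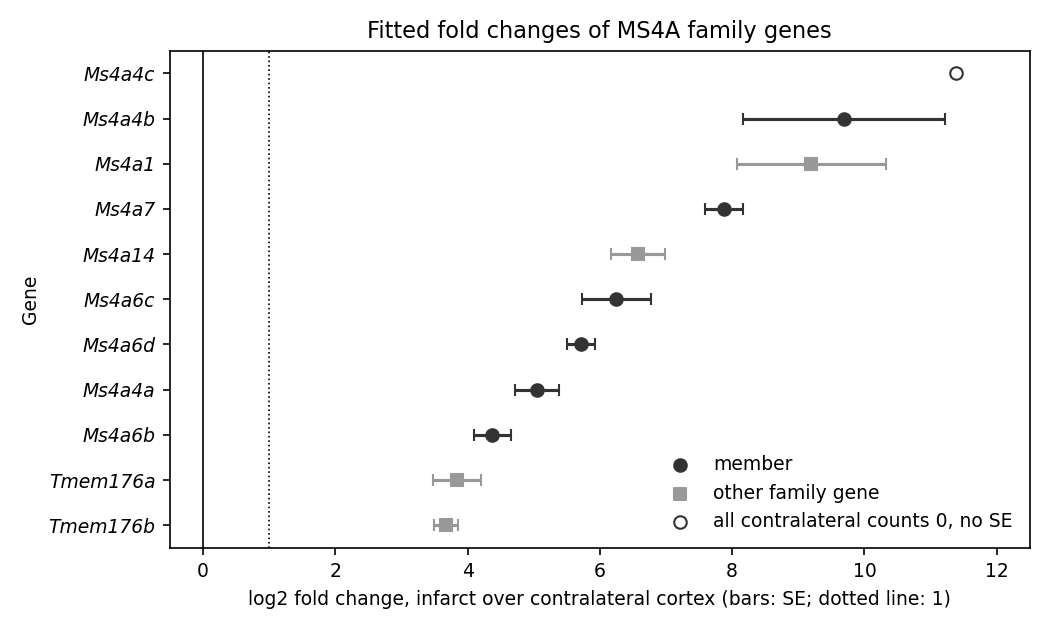
Fitted log2 fold change (infarct over contralateral cortex, bars are SE) of the 7 tested members (circles) and 4 tested other family genes (squares); the open circle is *Ms4a4c*, fitted against 0 counts and without SE. All 11 points lie right of the dotted line at 1, from 3.68 for *Tmem176b* upward.

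Levels of different genes were compared as CPM per kilobase of exon, using the union of annotated exons. In infarcts the order was *Ms4a6d* (89.6 ± 15.4, SD, *n* = 3), *Ms4a7* (29.6 ± 5.95), *Ms4a4a* (24.6 ± 4.53), *Ms4a4c* (13.3 ± 5.23), *Ms4a6b* (10.7 ± 3.72), *Ms4a6c* (10.3 ± 3.29), *Ms4a4b* (4.98 ± 2.65) and *Ms4a8a* (0.0684 ± 0.0472). *Ms4a6d* lay above *Ms4a7* in every library, and *Ms4a4a* above *Ms4a4c*, without overlap. *Ms4a4b* lay above *Ms4a8a* in the same way. The neighbors *Ms4a7* and *Ms4a4a* overlapped, as did *Ms4a4c* and *Ms4a6b*, and *Ms4a6b* and *Ms4a6c*. In each of these pairs the first was higher in 2 of the 3 infarcts, so these ranks are not distinct beyond the spread. *Ms4a6c* and *Ms4a4b* also overlapped across libraries, but *Ms4a6c* was the higher within each of the 3 infarcts. With the longest transcript as the length, *Ms4a6b* and *Ms4a6c* changed places and *Ms4a4b*, whose annotated exons are long (8780 bases against 4750 for its longest transcript), rose to 9.20. Summed over the 8 members, the level was 213, 191 and 145 CPM per kilobase in infarcts and 3.37, 3.28 and 3.19 in contralateral cortices.

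The makeup of this sum differed between the regions. *Ms4a6d* made up 46.3% to 51.5% of the summed level in infarcts and 40.0% to 62.6% in contralateral cortices, so the ranges overlapped. *Ms4a7* held 14.7% to 16.9% in infarcts and 2.67% to 4.55% in contralateral cortices. *Ms4a6b* went the other way, with 4.93% to 6.82% in infarcts and 14.2% to 17.7% in contralateral cortices. *Ms4a4b* and *Ms4a4c* together were nearly absent from contralateral cortex, and *Ms4a4a* had overlapping shares, 10.8% to 15.6% against 13% to 34.6%. These shares are a description and were not tested, since 3 libraries against 3 cannot give an exact two-sided permutation *p* under 0.1.

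**Figure D4:**
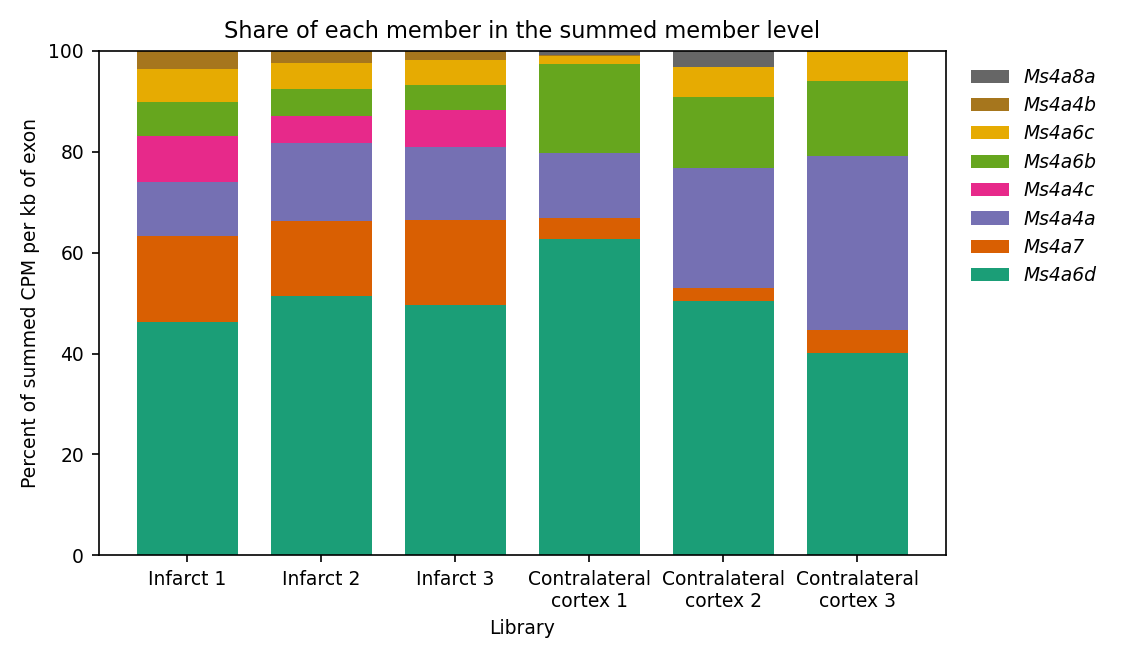
Share of each member in the summed CPM per kilobase of exon, in percent, for each of the 6 libraries. *Ms4a6d* is the widest band in every library, the band of *Ms4a7* is wider in the 3 infarcts (14.7% to 16.9%) than in the 3 contralateral cortices (2.67% to 4.55%), and that of *Ms4a6b* is narrower.

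Since myeloid markers were also higher in infarcts, each member was set against them within each library. All 10 genes of a pan-myeloid list (among them *Ptprc*, *Csf1r* and *Aif1*) were called higher, against 25.7% of all tested genes. Their median log2 fold change was 4.78. Per 1000 summed CPM of that list, *Ms4a7* gave 16.3, 15.1 and 17.8 in infarcts and 3.11, 2.28 and 2.80 in contralateral cortices. Its mean log2 ratio was 2.59 higher in infarcts, the widest gap of the 5 members counted in every library (exact two-sided permutation *p* = 0.1, adjusted 0.167 over 5 members, where 0.1 is the smallest possible). The log2 difference was 1.06 for *Ms4a6c* (*p* = 0.1, adjusted 0.167, exact permutation), 0.44 for *Ms4a6d* (*p* = 0.2, adjusted 0.25, exact permutation), -0.24 for *Ms4a4a* (*p* = 0.6, adjusted 0.6, exact permutation) and -0.98 for *Ms4a6b* (*p* = 0.1, adjusted 0.167, exact permutation).

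These ratios depended on the reference. The lysozyme gene *Lyz2* alone made up 76.2% to 82.4% of the summed list in infarcts and 8.03% to 10.2% in contralateral cortices. With the list taken without *Lyz2*, an alternative added after the values were seen, all 5 log2 differences were above 0, from 1.17 for *Ms4a6b* to 4.74 for *Ms4a7*. Against the geometric mean of the list, also added later, *Ms4a7* was at 3.26, *Ms4a6c* at 1.72, *Ms4a6d* at 1.11, *Ms4a4a* at 0.43 and *Ms4a6b* at -0.32. Against *Csf1r* alone, the receptor gene of microglia and macrophages, they ran from 2.37 for *Ms4a6b* to 5.95 for *Ms4a7*, and against *Aif1* alone from 1.16 to 4.73. The order of the 5 members cannot change with the reference, but the sign did for *Ms4a4a* and *Ms4a6b*. For *Ms4a7*, *Ms4a6c* and *Ms4a6d* the difference was above 0 with each of the 5 references. That of *Ms4a6c* rests on 2, 6 and 4 contralateral counts, and *Ms4a6c* cannot be told apart from *BE692007*.

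**Figure D5:**
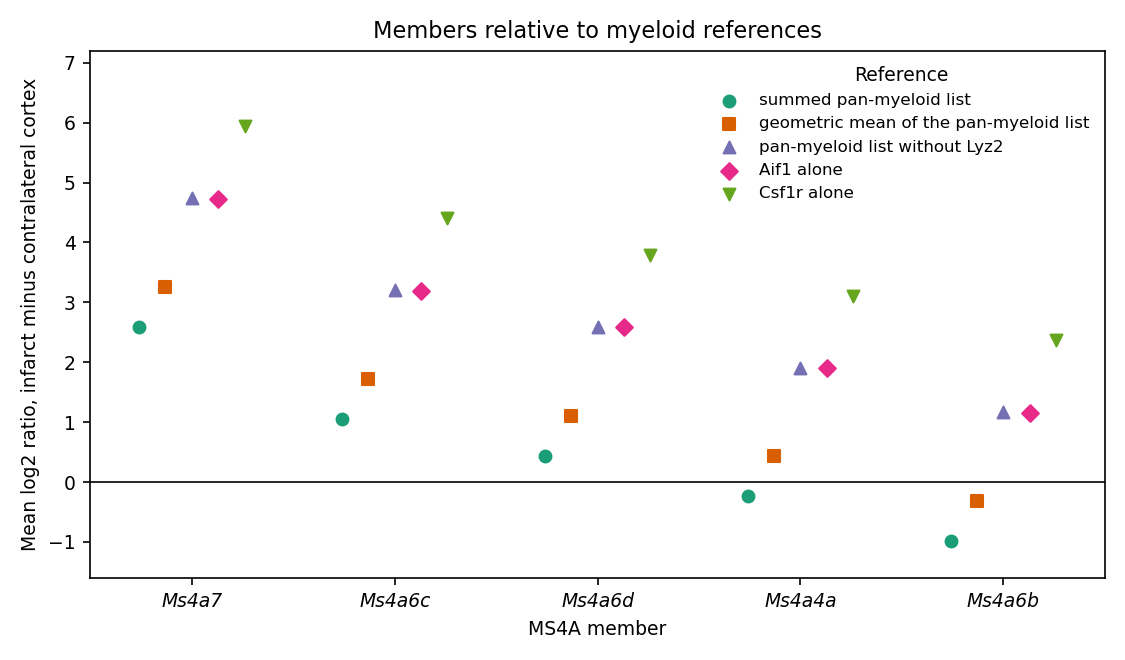
Difference in mean log2 ratio (infarct minus contralateral cortex) of the 5 members counted in every library, against 5 myeloid references (marker shapes). *Ms4a7* lies highest, from 2.59 to 5.95, while *Ms4a4a* and *Ms4a6b* fall on either side of 0 depending on the reference.

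Of 15 other genes of the family, listed by name, 4 passed the filter and all 4 were called higher, against 25.7% of all tested genes. This count is not support either, since *Ms4a1* and *Ms4a14* passed the filter only through their infarct counts. *Ms4a1*, the CD20 gene of B cells, had 2061, 968 and 838 counts in infarcts and 0, 3 and 4 in contralateral cortices (log2 fold change 9.20 ± 1.13, SE; adjusted *p* = 4.58e-05), and infarct 1 was again the highest. *Ms4a14*, the neighbor of *Ms4a7*, had 304, 480 and 359 counts in infarcts against 8, 3 and 2 (6.58 ± 0.41, SE; adjusted *p* = 3.51e-07). The related *Tmem176a* and *Tmem176b*, on chromosome 6 and known from myeloid and dendritic cells, were expressed in contralateral cortex as well. *Tmem176b* stood at 656, 445 and 454 CPM in infarcts and 40.4, 38.4 and 42.5 CPM in contralateral cortices (log2 fold change 3.68 ± 0.18, SE; adjusted *p* = 4.70e-07), and *Tmem176a* had a log2 fold change of 3.84 ± 0.36 (SE; adjusted *p* = 5.06e-05).

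The other 11 family genes had few or no counts. *Ms4a4d*, which lies between *Ms4a6b* and *Ms4a6d*, had 24, 9 and 31 counts in infarcts and 0, 1 and 0 in contralateral cortices and missed the filter. The mast cell gene *Ms4a2* had 0, 3 and 0 counts in infarcts, and *Ms4a3*, a gene of granulocyte and monocyte progenitors, had 1, 3 and 0, with none in contralateral cortices. *Ms4a12* had 1 count in an infarct, and *Ms4a19* and *Ms4a20* had 1 count each in a contralateral cortex. *Ms4a5*, *Ms4a10*, *Ms4a13*, *Ms4a15* and *Ms4a18* had 0 counts in all 6 libraries.

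Genes for proteins known to bind or work with MS4A proteins were mostly higher as well. Of 10 listed, 8 were tested and 7 called higher, against 25.7% of all tested genes. Some, such as *Clec7a* and *Cd40*, passed the filter only through their infarct counts. *Trem2*, a lipid receptor of microglia and macrophages, stood at 113, 104 and 97.5 CPM in infarcts and 4.81, 3.32 and 3.51 CPM in contralateral cortices (log2 fold change 4.74 ± 0.18, SE; adjusted *p* = 1.64e-07), and its adaptor *Tyrobp* had a log2 fold change of 4.76 ± 0.22 (SE; adjusted *p* = 3.30e-07). *Clec7a*, which encodes dectin-1, the partner of *Ms4a4a*, had 4428, 4112 and 3631 counts in infarcts and 2, 5 and 0 in contralateral cortices (10.85 ± 0.61, SE; adjusted *p* = 1.64e-07). *Vsig4*, the partner gene of *Ms4a6d*, had 16, 13 and 8 counts in infarcts and 0 in each contralateral cortex and missed the filter. The inflammasome gene *Nlrp3* had a log2 fold change of 3.47 ± 0.37 (SE; adjusted *p* = 2.59e-05). *Tnfrsf18*, the GITR gene whose product binds the *Ms4a4b* protein, was not called, with 20, 35 and 39 counts in infarcts and 33, 48 and 12 in contralateral cortices (0.18 ± 0.43, SE; adjusted *p* = 0.726). The Fc receptor chain *Fcer1g*, the kinase *Syk* and the co-stimulatory receptor *Cd40* were called higher, with log2 fold changes of 4.85, 5.28 and 4.67. *Fcer1g* and *Tyrobp* also belong to the pan-myeloid list. *Fcer1a* had 2, 2 and 1 counts in infarcts and 0 in contralateral cortices.

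Markers of several leukocyte classes moved with the members, and some of them passed the filter only through their infarct counts. Of all tested genes, 25.7% were called higher, and the median log2 fold change over all of them was 0.03. All 10 genes of a monocyte and monocyte-derived macrophage list (*Ccr2*, *Ly6c2* and *Plac8* first among them) were called higher, with a median log2 fold change of 6.93, and *Lyz2* is in this list and in the pan-myeloid list. Of 8 dendritic cell genes, 6 were called higher, with a median of 3.95, and *Flt3* (-0.54) and *Zbtb46* (-0.39) were not. Of a border-associated macrophage list, 8 of the 9 tested were called higher with a median of 2.18, and *Cd163* was not (0.46). Of 10 homeostatic microglia genes, 6 were called higher with a median of 1.69, and *P2ry12* (-0.20) and *Siglech* (0.02) were not. The summed microglial CPM were 986 to 1062 in infarcts and 312 to 366 in contralateral cortices, a smaller gap than for any called member. Each of 8 interferon-regulated genes and 7 of the 8 listed genes of alternative macrophage activation were called higher, with medians of 4.54 and 3.51, and *Retnla* missed the filter. The part of any 1 cell class in the members' difference was not tested.

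Lymphocyte markers were also higher, and *Ms4a4b* is known from T cells. All 9 tested of 10 T-cell genes were called higher (median log2 fold change 6.84). So were all 6 tested of 7 NK-cell genes (7.81) and all 8 B-cell genes (7.93). Many of these passed the filter only through their infarct counts, and 25.7% of all tested genes were called higher. The summed T-cell CPM were 195, 73.6 and 49.2 in infarcts 1, 2 and 3 and 5.72 to 7.55 in contralateral cortices. *Ms4a4b* fell in the same order over the infarcts, 69.1, 38.7 and 23.3 CPM. So did *Ms4a6b*, *Ms4a6c*, *Ms4a6d* and *Ms4a7*, and the order is not particular to *Ms4a4b*. Summed B-cell CPM were 215, 125 and 116, and summed pan-myeloid CPM 9871, 8291 and 6125, also highest in infarct 1. The order of 3 libraries therefore does not separate these classes, and their part in the level of *Ms4a4b* was not tested. Without infarct 1 the log2 fold change of *Ms4a4b* was 9.22 (adjusted *p* = 3.28e-08). Of the mast cell list, *Cpa3* and *Hdc* were called higher and the other tested genes *Kit* and *Gata2* were not. All 4 tested of 8 neutrophil genes were called higher (median log2 fold change 4.72). The list summed to 56.2 to 71.6 CPM in infarcts and 4.75 to 6.00 in contralateral cortices. Most of this sum was *Csf3r*, with a mean of 49.0 CPM in infarcts and 5.07 in contralateral cortices. *Ly6g*, *Mpo*, *Elane* and *Retnlg* missed the filter, with at most 2, 10, 0 and 11 counts in any infarct.

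For each tested member, the genes with the most similar profile were sought over the 6 libraries, by the root mean square difference of centered log2 CPM. This measure mostly reflects the size of the gap between regions, and is given as a description. A prior count was added before the log2, which narrows the gap of genes with almost no contralateral counts. Distances of *Ms4a4b* and *Ms4a4c* therefore depend on that prior count. The fitted log2 fold change of *Ms4a4b* was 9.69, against 7.99 and 7.86 for *H2-Aa* and *Cd74*, its nearest genes below. The nearest genes of *Ms4a7* were *AB124611*, *Siglec1* and *Cd300ld* (0.18, 0.19 and 0.19 log2 units), of which *Siglec1* encodes a macrophage sialic acid receptor. *Ms4a4b* lay nearest to the antigen presentation genes *H2-Aa* and *Cd74* (0.12 and 0.18). *Ms4a4c* lay nearest to the Fc receptor gene *Fcgr4* (0.14) and *AB124611* (0.15). *Ms4a6d* lay nearest to *Col6a3*, *Tfec* and *Ifi203* (0.18, 0.19 and 0.21), and *Ms4a6b* to *Col12a1*, *Arhgdib* and *Gm8369* (0.07, 0.10 and 0.11). These include collagen genes of fibroblasts. All 6 listed fibroblast markers were called higher, against 25.7% of all tested genes. They summed to 6927 to 8680 CPM in infarcts and 146 to 189 in contralateral cortices. *Ms4a6c* lay nearest to *Gpr35*, *Ifi30* and *C1s1* (0.17, 0.17 and 0.24), and *Ms4a4a* to *Tmem30b*, *Slfn10-ps* and *Tlr2* (0.19, 0.22 and 0.26). No member was among the 3 nearest genes of another, and the nearest pair, *Ms4a4c* and *Ms4a7*, differed by 0.27. This distance also depends on the prior count, since *Ms4a4c* had no count in any contralateral cortex.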

How the data were processed

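Per the labels and the paper's methods, the authors trimmed paired reads with Trimmomatic 0.32, aligned them to GRCm38 with STAR 2.5.2b and deposited raw counts per gene from htseq-count, whose annotation and strand setting are not given in the sources used here. The 5 tally entries that name no gene were left out, and 65.7% to 73.4% of tallied reads fell on genes. Gene positions came from GENCODE M21, in which 849 identifiers were not found. Counts were fitted with edgeR 4.0.16 (filterByExpr, TMM, glmQLFit, glmQLFTest, region only) in R 4.3.3, with Benjamini-Hochberg adjustment over all 15554 tested genes. Alternatives were DESeq2 1.42.0, limma 3.58.1 voom, other scalings, filters and thresholds, a replicate block, and each library left out. Tested on simulated data with 15554 genes, edgeR called 198 of 200 genes changed 4-fold, and 5 unchanged genes. The changed genes were drawn only from well-counted genes, so changed genes with almost no counts in 1 region were not covered. Promoter windows were aligned globally (match 2, mismatch -1, gap opening -5, extension -1). Similar genes used log2 CPM with a prior count of 2, and the third nearest gene of *Ms4a4b* and *Ms4a4c* is not reported here. Python 3.11.15, pandas 2.3.3, SciPy 1.17.1 and matplotlib 3.10.9 were used. The members and lists were chosen with earlier results of these data known. All members, the other family genes and the partners were named, and up to 3 genes per cell type list in list order. *Lyz2*, *Cd163*, *Siglech*, *Retnla*, *Hdc*, *Gata2*, *Csf3r*, *Ly6g*, *Mpo*, *Elane*, *Retnlg* and *BE692007* are outside that rule and were picked with their values known. *p* values are two-sided. Intervals and floors cover counting error only.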

Additional observations from a re-analysis of the deposited data

How the results depend on the processing

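The log2 fold change of each of the 7 called members kept its direction and its call under every alternative that could fit it, which were 13 for *Ms4a4a*, *Ms4a4b*, *Ms4a4c*, *Ms4a6c* and *Ms4a7* and 14 for *Ms4a6b* and *Ms4a6d*. The largest adjusted *p* was 2.72e-04, for *Ms4a4b* with limma voom. *Ms4a1*, at 9.20, moved to 8.44 without contralateral cortex 1 and to 9.99 without contralateral cortex 3. A minimum of 10 counts in every library left 2 members called (*Ms4a6b* and *Ms4a6d*), against 7, and 2 other family genes (*Tmem176a* and *Tmem176b*), against 4, because the others were not tested. It left 59 context genes called, against 110. *Ms4a4d*, untested in the main analysis, was called with no filter (log2 fold change 5.69) and with DESeq2 (6.01), whereas *Ms4a8a* was called by neither (0.47 and 0.53). Over all genes, 3192 higher and 2329 lower genes were called with glmTreat against a 2-fold change, and 4528 and 2766 with library totals, which moved the median gene to 0.23. The median log2 ratio of the 5 members to myeloid markers was 0.44, and became 3.79 with *Csf1r*, 2.58 with *Aif1*, 2.59 without *Lyz2* and 1.11 with the geometric mean of the list (the last 2 chosen after seeing the data). Leaving out 1 library moved it from 0.15 (without contralateral cortex 3) to 0.55. *Ms4a4a*, at -0.24, changed sign to 3.11, 1.90, 1.91 and 0.43 with these 4 references, and *Ms4a6b*, at -0.98, to 2.37, 1.16 and 1.17 with the first 3, while *Ms4a6c* went from 1.06 to 0.43 without contralateral cortex 1. The share of *Lyz2* in the summed list differed between the regions, as given above. Deviations of libraries with the same number had correlations of -0.19, 0.101 and 0.0011, and not every library correlated best with its own number. Deviations were taken from the mean of 3 libraries per region, so the correlations of each library nearly cancel. The check therefore cannot decide whether the numbers pair mice. With a replicate block, 3945 genes were called higher and 3222 lower, with 7 members, 4 other family genes and 110 context genes called. Depth limits *Ms4a8a* and the size of the fold for *Ms4a4b* and *Ms4a4c*, which had 2 and 0 counts in contralateral cortex.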
